A study of Mus musculus with 6 samples.

Results

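The genes described here are the ubiquitin-conjugating enzymes, or E2 enzymes, of mouse spleen: every probe of the authors' deposited array table whose gene symbol begins with Ube2. That rule uses names only, so it also counts Ube2cbp, which is named for binding the E2 enzyme UBE2C and not as an E2. The rule found 64 probes for 32 genes, of 31692 probes and 16361 named genes in the table. RNA was taken from the spleens of female mice of the NOD strain, in which autoimmune diabetes arises without any trigger being given. MOTS-c, a peptide encoded in mitochondrial DNA, was injected into the peritoneum every day at 0.5 mg/kg/day in 3 samples, and 3 vehicle samples received a scrambled MOTS-c peptide by the same scheme. Injections began at 6 weeks of age and spleens were taken at 18 weeks after a fast of 16 to 18 h, in both groups. Nothing in the labels states that each sample is a mouse of its own, so a p-value here measures only the spread between these samples.

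E2 enzymes are the middle step of ubiquitin transfer. An E1 enzyme activates ubiquitin, an E2 takes it over on a cysteine, and an E3 ligase brings the loaded E2 to the protein that is to be marked. A few E2 enzymes carry other modifiers of the same fold, such as NEDD8 or ISG15. Because the E2 sets much of the kind of ubiquitin chain that is built, single members have become tied to particular tasks: cell division, DNA repair, quality control in the endoplasmic reticulum, or the clearing out of ribosomes by maturing red blood cells. The spleen of a mouse holds mainly B and T lymphocytes and, in its red pulp, also forms red blood cells.

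In MOTS-c spleens, 6 Ube2 genes were lower than in vehicle spleens by 1.60-fold to 2.26-fold: Ube2l6, Ube2o, Ube2t, Ube2c, Ube2e3 and Ube2s. Of the other 26, 17 were lower and 9 higher, with a median log2 difference (MOTS-c minus vehicle) of -0.10, and Ube2d1 was the one gene higher by 1.5-fold or more. No Ube2 gene passed the test, limma on the authors' normalized log2 signals with Benjamini-Hochberg adjustment over all probes and a threshold of 0.05. The background of that test was 0 of 31692 probes (0%), with a smallest adjusted p of 0.0820, while 8198 probes had an unadjusted p under 0.05. The 6 genes had adjusted p-values of 0.0820 to 0.0828, and the next, Ube2d2a, had 0.136. At an unadjusted p under 0.05, 10 of the 32 genes were lower (31.2%, against 13.0% of all named genes) and 1 was higher (3.12%, against 13.3%). A log2 difference below 0 was found in 23 of 32 genes (71.9%), against 43.6% of all named genes. The median difference was -0.24 over the Ube2 genes and 0.06 over all named genes. Each gene is represented here by its brightest probe.

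The count of genes whose 3 MOTS-c and 3 vehicle values do not overlap points the same way. Among the Ube2 genes, 12 of 32 (37.5%) had all MOTS-c values below all vehicle values, against a background of 16.3% of all named genes, and 3 of 32 (9.38%) had all MOTS-c values above, against 19.4%. At a fold of 1.5 or more, 6 genes (18.8%) were lower, against 9.58%, and 1 (3.12%) was higher, against 9.74%. Counted by probe, 26 of 64 were lower with no overlap (40.6%, against 16.7% of all probes) and 6 were higher (9.38%, against 17.7%). The last gene inside a fold of 1.5 on the lower side was Ube2s at -0.68, and the first outside it was Ube2d2a at -0.47.

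**Figure D1:**
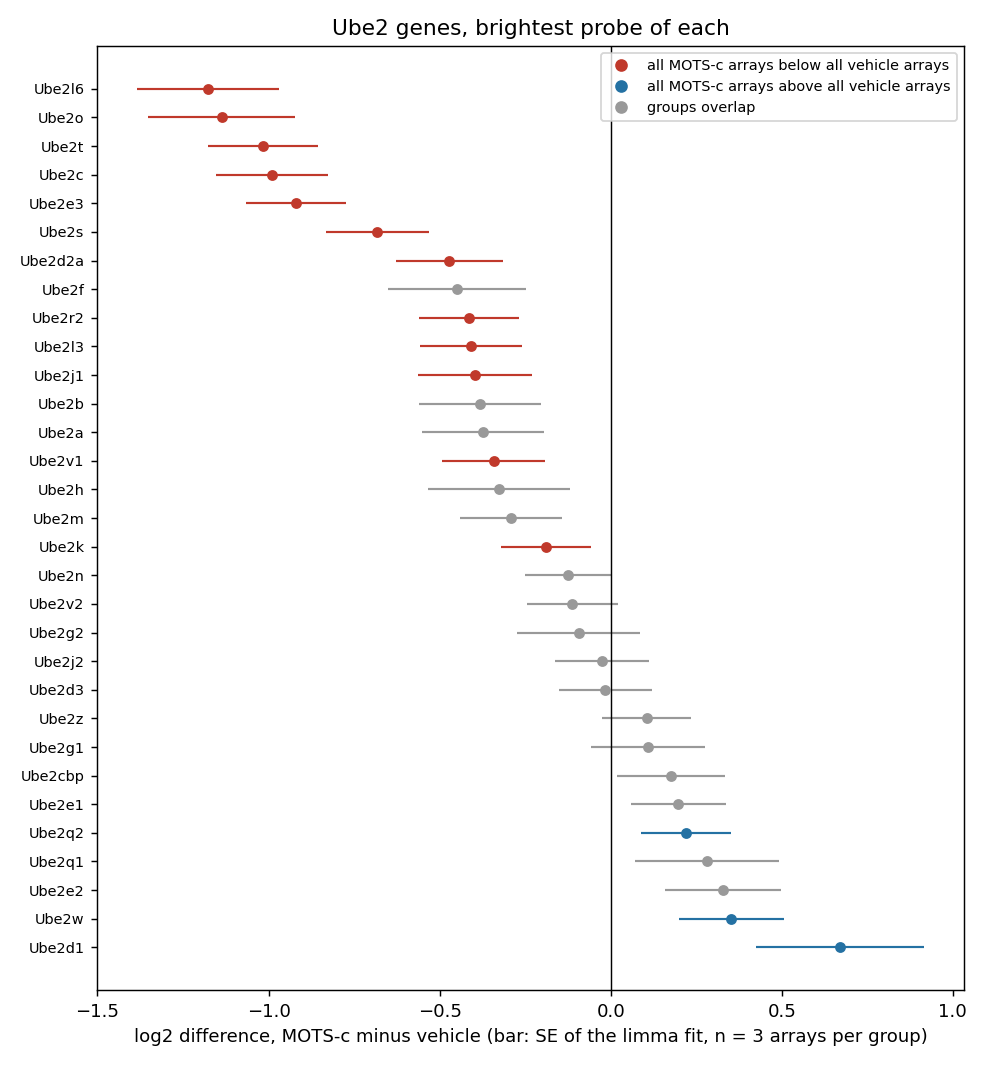
Log2 difference (MOTS-c minus vehicle, x axis) of the brightest probe of 31 Ube2 genes (rows), with bars for the standard error of the limma fit on 3 arrays per group. Colours separate genes whose MOTS-c values all lie below (12 genes) or above (3 genes) the vehicle values from those that overlap; the rows run from Ube2l6 at -1.18 to Ube2d1 at 0.67, with the 6 lowest ending at Ube2s, -0.68.

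Most Ube2 genes gave bright signals. The mean level over the 6 arrays was 8.07 for Ube2cbp and 14.86 for Ube2v1, near the ends of the range on the log2 signal scale, and 28 of 32 were above the median of all named genes, 9.91. Probes differ in how well they bind, so these levels are not ranked between genes. The vehicle arrays spread more than the MOTS-c arrays: the median SD over the Ube2 genes was 0.110 in MOTS-c and 0.204 in vehicle samples (n = 3 each), and over all named genes 0.146 and 0.248.

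Several facts of the arrays bear on these values. Slide 2 held all 3 MOTS-c arrays and vehicle 3, and slide 1 held vehicle 1 and vehicle 2, so a comparison within a slide has vehicle 3 alone on the vehicle side. The scans were split as the slides were. Before normalization, vehicle 1 was the dimmest array, with a 75th percentile signal of 678 against 841 to 926 on the other arrays. All 17 measured erythroid marker genes were lower in MOTS-c spleens, 15 with no overlap; their mean log2 level was 13.69 to 13.88 in MOTS-c and 14.40 to 14.95 in vehicle samples. All 16 cell cycle markers were lower with no overlap, with mean levels of 12.15 to 12.53 in MOTS-c and 12.95 to 13.52 in vehicle samples. T cell markers went the other way in 14 of 14 genes, with mean levels of 12.70 to 12.76 in MOTS-c and 10.72 to 12.20 in vehicle samples, and so did 11 of 11 B cell markers, at 12.34 to 12.54 and 10.62 to 12.30. Vehicle 1 gave the low end of both vehicle ranges. Of all named genes, 43.6% were lower in MOTS-c spleens, and 16.3% were lower with no overlap. The marker lists were chosen with earlier results of these data known. Acinar genes of the pancreas, which spleen should lack, averaged 6.64 to 9.41 in MOTS-c samples and 7.59 to 13.75 in vehicle samples, with vehicle 3 the highest. In a whole organ, fewer cells of a type and less RNA per cell cannot be told apart, and the part of these markers in the Ube2 values was not tested.

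Ube2c, Ube2s and Ube2t act mainly in dividing cells, and all 3 were lower in MOTS-c spleens without overlap. Ube2c starts ubiquitin chains on the targets of the anaphase-promoting complex (APC/C), the ligase that ends mitosis. Its log2 levels were 13.63, 13.58 and 13.31 in MOTS-c samples and 14.67, 14.28 and 14.54 in vehicle samples. Every MOTS-c value lay below every vehicle value, and the difference was -0.99 ± 0.16 (SE, 1.99-fold lower, limma adjusted p = 0.0820). Ube2s lengthens the chains that Ube2c begins, as K11-linked ubiquitin. It measured 13.97, 14.01 and 13.89 in MOTS-c samples and 14.82, 14.42 and 14.67 in vehicle samples. The MOTS-c arrays were nearly level with each other (SD 0.061), and the difference was -0.68 ± 0.15 (1.60-fold lower, limma adjusted p = 0.0828), with -0.70 at its other probe. Ube2t serves the Fanconi anaemia pathway of DNA cross-link repair, in which it and the ligase subunit Fancl put a single ubiquitin on Fancd2. Its levels were 10.06, 10.35 and 10.07 in MOTS-c samples and 11.39, 11.01 and 11.14 in vehicle samples, a difference of -1.02 ± 0.16 (2.02-fold lower, limma adjusted p = 0.0820). A dim probe of Ube2t, with a mean level of only 4.78, gave -0.14. The cell cycle markers Mki67 and Cdk1 differed by -0.91 and -1.30 in the same samples.

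The complexes that these enzymes work with were lower in part. Of 17 APC/C subunits and regulators, 11 were lower and 2 higher with no overlap (against 16.3% and 19.4% of all named genes), and the median difference was -0.19; none passed the adjusted test. The members with the smallest p were the coactivators Cdc20 at -0.97 ± 0.18 and Fzr1 at -0.91 ± 0.17, and the APC/C inhibitor Fbxo5 at -0.84 ± 0.22 (SE; limma adjusted p = 0.0820, 0.0820 and 0.101). Cdc20 is also one of the cell cycle markers above. Of 10 measured genes of the Fanconi core complex and its targets, 6 were lower and 0 higher with no overlap (against 16.3% and 19.4% of all named genes), with a median of -0.35. The pair of proteins that Ube2t and Fancl modify stood at the front: Fancd2 differed by -0.995 ± 0.180 and Fanci by -0.86 ± 0.19 (limma adjusted p = 0.0820 and 0.0828). Fancc, a core subunit, differed by -1.02 ± 0.31 and Fancl itself by -0.36.

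The promoters of the members that lie at the low end are shown because the genes differ there in the letters that cell cycle promoters often carry. RefSeq promoter windows on GRCm38.p6 were matched for 25 of the 32 genes, among them 4 of the 6. Each line gives the 250 bases before the annotated start, 5′ to 3′ on the gene's strand. Capitals mark a CCAAT box (CCAAT, or ATTGG for the other strand) or the cell cycle homology region (CHR, TTTGAA or TTCGAA, or TTCAAA for the other strand).
Ube2c: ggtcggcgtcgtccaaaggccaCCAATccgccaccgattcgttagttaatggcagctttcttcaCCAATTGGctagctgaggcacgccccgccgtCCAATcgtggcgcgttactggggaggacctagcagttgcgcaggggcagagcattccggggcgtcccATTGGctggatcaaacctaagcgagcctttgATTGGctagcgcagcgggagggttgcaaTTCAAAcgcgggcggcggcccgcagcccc
Ube2t: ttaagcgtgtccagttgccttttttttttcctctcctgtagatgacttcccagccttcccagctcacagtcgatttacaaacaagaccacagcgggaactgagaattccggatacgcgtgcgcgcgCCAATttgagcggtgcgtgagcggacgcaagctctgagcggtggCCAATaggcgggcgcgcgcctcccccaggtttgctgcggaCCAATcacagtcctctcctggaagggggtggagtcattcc
Ube2s: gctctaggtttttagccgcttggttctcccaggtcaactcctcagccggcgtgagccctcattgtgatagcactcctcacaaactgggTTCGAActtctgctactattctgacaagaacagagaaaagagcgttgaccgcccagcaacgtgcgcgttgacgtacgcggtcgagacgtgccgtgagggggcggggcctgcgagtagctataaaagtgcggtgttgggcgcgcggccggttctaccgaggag
Ube2l6: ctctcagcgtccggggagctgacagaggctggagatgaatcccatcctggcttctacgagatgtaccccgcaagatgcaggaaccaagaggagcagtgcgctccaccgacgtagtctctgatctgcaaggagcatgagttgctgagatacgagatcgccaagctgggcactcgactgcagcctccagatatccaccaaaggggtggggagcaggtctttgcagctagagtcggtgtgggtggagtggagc

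The Ube2c window (chr2:164769679-164769928, plus strand) held 6 CCAAT boxes on either strand, 2 of which overlap in the run CCAATTGG, and a CHR 29 bases before the start. Ube2t (chr1:134962315-134962564, plus strand) held 3 CCAAT boxes, beginning 124, 80 and 40 bases before the start, and no CHR. Ube2s (chr7:4812341-4812590, minus strand) held a CHR 162 bases before the start and no CCAAT box. The window of Ube2l6 (chr2:84798578-84798827, plus strand) held neither, nor AGATAA (the GATA motif) or the interferon-stimulated response element (GAAA, 2 bases of any kind and GAAA again). In the full windows of 300 bases, which run 50 bases past the start, a CCAAT box occurred in 6 of the 25 Ube2 genes and 37.4% of 32851 promoters, and a CHR in 4 of 25 and 19.2%. AGATAA was found in 1 of 25, Ube2h, and in 11.2% of all promoters, and the interferon-stimulated response element in 0 of 25 and 3.44%. All motifs were searched on both strands, and a match describes letters only.

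**Figure D2:**
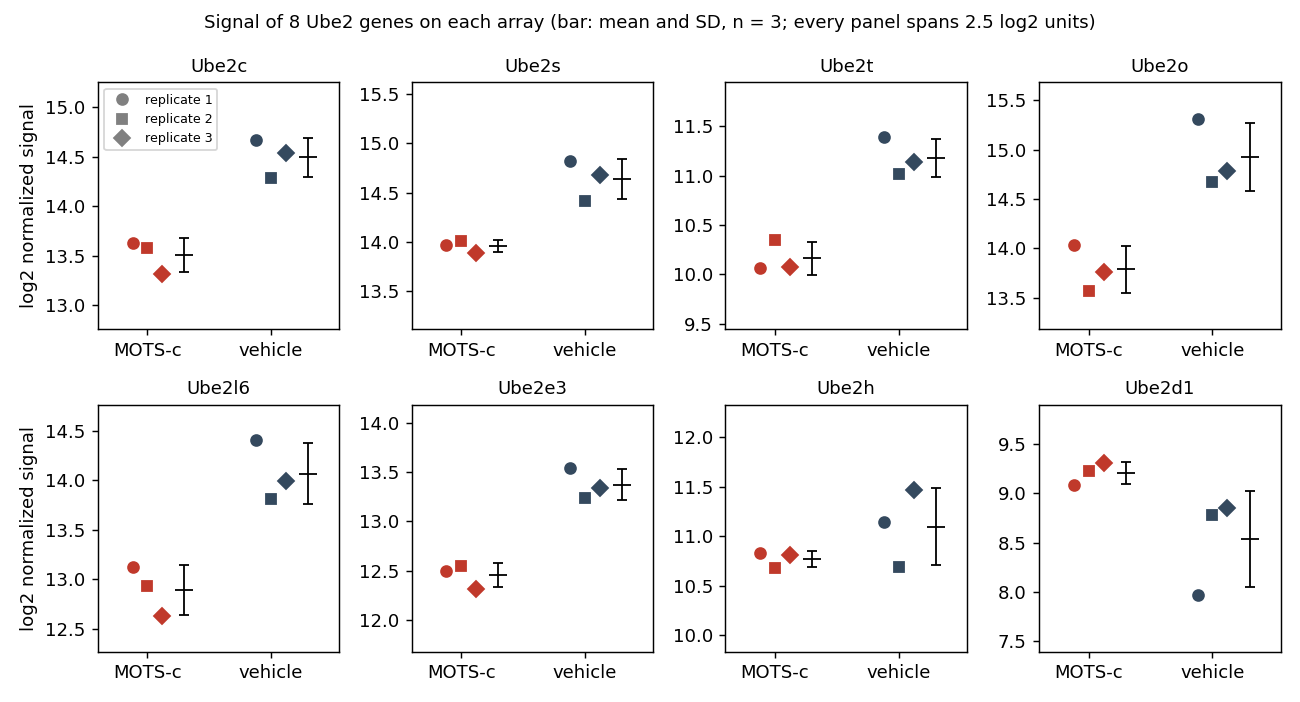
Log2 normalized signal (y axis) of 8 Ube2 genes on each of the 3 MOTS-c arrays (left in each panel) and the 3 vehicle arrays (right), with the mean and SD of each group beside the points and symbols for the replicate number. Ube2c, Ube2s, Ube2t, Ube2o, Ube2l6 and Ube2e3 have all MOTS-c points below all vehicle points, Ube2h overlaps, and Ube2d1 has the MOTS-c points above, with vehicle 1 lowest at 7.97.

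A list of members linked to late red blood cell formation held Ube2o, Ube2h, Ube2e3 and Ube2l6. All 4 were lower, 3 of them with no overlap, and Ube2h overlapped. The share over all named genes was 16.3%, but the list was drawn up with earlier results of these data known. The count therefore describes these genes and gives no support to the list as a group. Ube2o is an unusually large enzyme that acts as E2 and E3 in one and, in reticulocytes, marks ribosomal proteins and unpaired globin for destruction. It had log2 levels of 14.04, 13.56 and 13.76 in MOTS-c samples and 15.31, 14.67 and 14.79 in vehicle samples. The lowest vehicle sample was still 0.64 above the highest MOTS-c sample. The difference was -1.14 ± 0.22 (SE, 2.20-fold lower, limma adjusted p = 0.0820), from the 1 probe the table has for it. Ube2h is the E2 of the CTLH ligase, which is needed for red blood cell maturation. Its brightest probe gave 10.83, 10.68 and 10.81 in MOTS-c samples and 11.14, 10.69 and 11.46 in vehicle samples. Vehicle 2 was as low as the MOTS-c samples, and the difference was -0.33 ± 0.21 (limma adjusted p = 0.343). Its other, dimmer probe gave -0.62 with no overlap.

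The subunits of the CTLH ligase were lower in part. Of 11 genes, 5 were lower and 1 higher with no overlap (against 16.3% and 19.4% of all named genes), with a median of -0.49. Ranbp10, a relative of the scaffold subunit Ranbp9, differed by -1.14 ± 0.20, Ypel5 by -1.26 ± 0.26 and Wdr26 by -0.77 ± 0.20 (SE; limma adjusted p = 0.0820, 0.0820 and 0.0993). The erythroid membrane gene Slc4a1 (band 3) differed by -1.11. None of these passed the adjusted threshold.

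Ube2l6 had, beside Ube2o, the widest difference of the family, and with 75th percentile scaling or without MOTS-c 3 Ube2o lay further from 0. It is the interferon-induced E2 that carries ISG15, a ubiquitin-like modifier of the antiviral response, and it has also been linked to red blood cell development. Its log2 levels were 13.12, 12.93 and 12.62 in MOTS-c samples and 14.41, 13.81 and 13.99 in vehicle samples. The groups were 0.69 apart at their nearest values, and the difference was -1.18 ± 0.21 (SE, 2.26-fold lower, limma adjusted p = 0.0820), with -1.36 at its other probe. The rest of the ISG15 pathway did not share its size. Isg15 itself differed by -0.17 ± 0.27 and the E1 enzyme Uba7 by 0.00 ± 0.13. Herc6, the ISG15 ligase of the mouse, differed by -0.51 ± 0.14 and Trim25 by 0.42 ± 0.16, both with no overlap. Usp18, which removes ISG15, differed by 0.43 ± 0.37 with overlapping groups. Of the 18 interferon-induced marker genes, 15 were higher and 3 lower in MOTS-c spleens, and the median difference was 0.75. With no overlap, 9 were higher and 1 lower, against 19.4% and 16.3% of all named genes. The 1 that was lower with no overlap differed by -1.09. The mean level of the 18 genes was 10.84 to 11.38 in MOTS-c samples and 9.88 to 11.10 in vehicle samples, and Ifit1 differed by 0.15. That places Ube2l6 on the opposite side of 0 from most genes of the list, with Usp18 and Isg15 belonging to both lists.

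**Figure D3:**
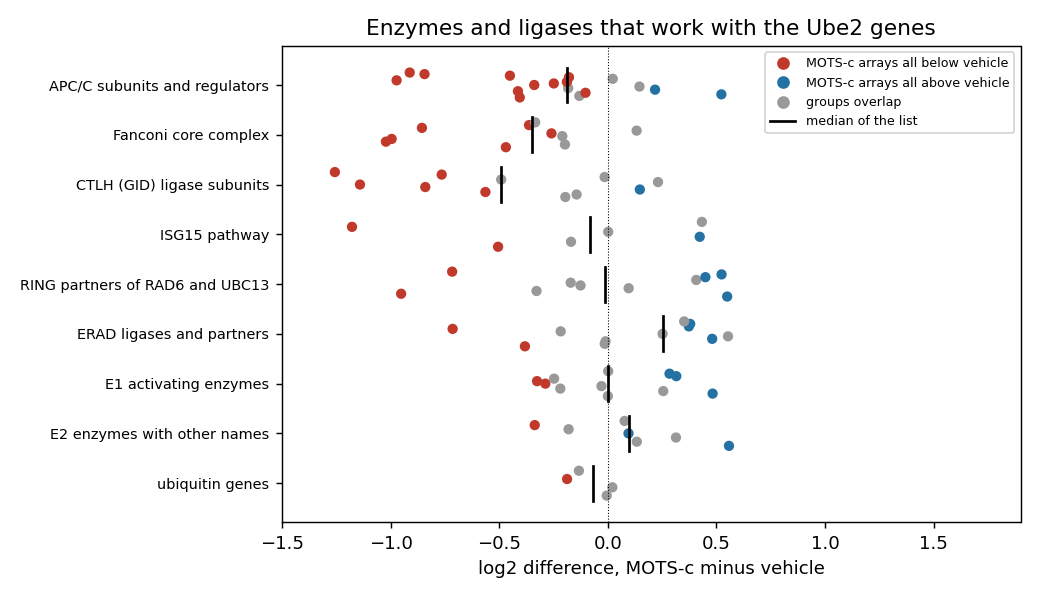
Log2 difference (MOTS-c minus vehicle, x axis) of every measured gene of the lists of partners of the E2 enzymes, 1 row per list and 1 point per gene, with a line at the list's median; colours show whether the 3 MOTS-c values all lie below or above the vehicle values or overlap. The line of the CTLH list stands at -0.49 and of the Fanconi list at -0.35, while that of the E1 enzymes stands at 0.00 and of the endoplasmic reticulum (ERAD) list at 0.25.

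The UBE2D and UBE2E enzymes serve a wide range of RING ligases, and their members went different ways. Ube2e3 had log2 levels of 12.50, 12.55 and 12.32 in MOTS-c samples and 13.54, 13.24 and 13.34 in vehicle samples. The difference was -0.92 ± 0.15 (SE, 1.89-fold lower, limma adjusted p = 0.0820). All 4 of its probes were lower with no overlap, at -1.08 to -0.84, so this is the member read by the most probes. Its closest relatives Ube2e1 and Ube2e2 were on the other side at 0.20 ± 0.14 and 0.33 ± 0.17, with overlapping groups. Ube2d1 measured 9.08, 9.23 and 9.30 in MOTS-c samples and 7.97, 8.78 and 8.85 in vehicle samples. All MOTS-c values were above all vehicle values, but vehicle 1 lay 0.80 below the next vehicle sample. The difference was 0.67 ± 0.25 (1.59-fold higher, limma adjusted p = 0.155) and 0.90 at its other probe, and without vehicle 1 it was 0.39. Ube2d3, another member of that subfamily, had 13.97, 14.24 and 14.01 in MOTS-c samples and 14.16, 14.04 and 14.07 in vehicle samples. The groups lay on top of each other, with a difference of -0.02 ± 0.14. Ube2d2a differed by -0.47 ± 0.16 with no overlap at its brightest probe, and its 2 other probes gave smaller or opposite values.

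Of the remaining broad-range enzymes, Ube2l3 works with HECT and RBR ligases, such as parkin, that take ubiquitin onto their own cysteine. It measured 12.89, 13.00 and 12.84 in MOTS-c samples and 13.51, 13.33 and 13.12 in vehicle samples. There was no overlap, and the difference was -0.41 ± 0.15 (SE, limma adjusted p = 0.154). Ube2w, which attaches ubiquitin to the amino end of proteins, was higher with no overlap at 0.35 ± 0.15 (limma adjusted p = 0.201), and its second probe gave 0.38. Ube2r2, a relative of Cdc34 that serves cullin ligases, was lower with no overlap at -0.41 ± 0.15, and Ube2k, which builds K48-linked chains, at -0.19 ± 0.13 (limma adjusted p = 0.146 and 0.385). Ube2q2 was higher with no overlap at 0.22 ± 0.13. Ube2q1 differed by 0.28 ± 0.21 (0.07 without vehicle 1), Ube2z, which the E1 enzyme Uba6 loads, by 0.10 ± 0.13, and Ube2cbp, a protein named for binding UBE2C, by 0.18 ± 0.16, each with overlapping groups.

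The 2 carriers of NEDD8 had overlapping groups. Ube2m, which attaches NEDD8 to cullins, had 10.27, 10.27 and 10.36 in MOTS-c samples and 10.70, 10.72 and 10.36 in vehicle samples. Vehicle 3 matched the MOTS-c samples, and the difference was -0.29 ± 0.15 (SE, limma adjusted p = 0.252). Ube2f, the other NEDD8 carrier, differed by -0.45 ± 0.20, or -0.28 without vehicle 1, and its 3 probes ran from -1.15 to -0.28.

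Ube2n builds K63-linked chains, used in signalling and DNA damage tolerance, together with Ube2v1 or Ube2v2, which resemble an E2 but lack its active cysteine. Ube2n measured 13.21, 13.34 and 13.24 in MOTS-c samples and 13.32, 13.46 and 13.38 in vehicle samples. The groups overlapped and differed by -0.13 ± 0.12 (SE, limma adjusted p = 0.543). Ube2v1 was lower with no overlap at -0.34 ± 0.15, and Ube2v2 differed by -0.11 ± 0.13. Ube2a and Ube2b, the mouse counterparts of yeast Rad6, mark histone H2B and the DNA clamp PCNA and differed by -0.37 ± 0.18 and -0.38 ± 0.18, both with overlap. Of 10 RING ligases that work with these enzymes, 2 were lower and 3 higher with no overlap, counts near the 16.3% and 19.4% of all named genes, with a median of -0.02. Rad18, which takes Rad6 to PCNA, differed by -0.95 ± 0.22, Ubr2 by -0.72 ± 0.18 and Traf2 by 0.45 ± 0.14 (limma adjusted p = 0.0860, 0.0939 and 0.125).

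Ube2j1, Ube2j2, Ube2g1 and Ube2g2 take part in the removal of misfolded proteins from the endoplasmic reticulum. Ube2j1, anchored in that membrane, had 12.89, 12.88 and 12.84 in MOTS-c samples and 13.58, 13.15 and 13.08 in vehicle samples. There was no overlap, the MOTS-c samples differed little (SD 0.024), and the difference was -0.40 ± 0.17 (SE, limma adjusted p = 0.191). Ube2j2 at -0.03 ± 0.14, Ube2g2 at -0.09 ± 0.18 and Ube2g1 at 0.11 ± 0.17 had overlapping groups. Of 11 ligases and partners of that pathway, 2 were lower and 3 higher with no overlap, again near the background of 16.3% and 19.4%, with a median of 0.25, led by Rnf139 at -0.71 ± 0.16, Derl2 at 0.48 ± 0.15 and Rnf185 at 0.37 ± 0.14.

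The steps before the E2 differed little on average. Of 11 genes for E1 enzymes, 2 were lower and 3 higher with no overlap (against 16.3% and 19.4% of all named genes), with a median of 0.00; low p-values belonged to Mocs3 at 0.48 ± 0.18 and Uba2 at -0.33 ± 0.16 (SE). Of 7 measured genes of the E2 fold that carry other names, 1 was lower and 2 higher with no overlap (against 16.3% and 19.4% of all named genes). Their median was 0.10, with Aktip at 0.56 ± 0.17, Tsg101 at -0.34 ± 0.14 and Atg3 at 0.31 ± 0.17. The 4 genes for ubiquitin itself had a median of -0.07; Ubb differed by -0.19 ± 0.13. No gene of these lists passed the adjusted threshold.

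The order of the vehicle arrays was alike across the low genes. In all 6, vehicle 1 was the highest vehicle sample and vehicle 2 the lowest. Vehicle 1 was also the highest vehicle sample in 10 of the 12 genes that were lower with no overlap, and the lowest in all 3 that were higher. The order is not particular to the Ube2 genes. In vehicle 1, 2 and 3, mean levels were 14.95, 14.40 and 14.81 for erythroid markers and 13.52, 12.95 and 13.26 for cell cycle markers. T and B cell markers were lowest in vehicle 1, at 10.72 and 10.62. Without vehicle 1 the 6 genes remained lower, from -1.01 for Ube2l6 to -0.59 for Ube2s, and 27 of the 32 differences were closer to 0. The matching shares of all named genes, for the vehicle order and for this shift, were not counted. Without vehicle 2 the differences of 4 of them, Ube2c, Ube2e3, Ube2l6 and Ube2t, passed the threshold (limma adjusted p = 0.0492, with 772 probes of the whole table passing). Against vehicle 3 alone, on the slide it shared with the MOTS-c samples, the 6 differed by -1.10 for Ube2l6, -1.03 for Ube2c, -0.998 for Ube2o, -0.97 for Ube2t, -0.89 for Ube2e3 and -0.72 for Ube2s. Their adjusted p-values in that comparison were 0.127 to 0.143; they rest on the spread of the MOTS-c arrays, since 1 vehicle array is assumed to vary as those do. In the same comparison Ube2d2a stood at -0.20, Ube2l3 and Ube2j1 at -0.21 each, Ube2m at -0.06, Ube2h at -0.69 and Ube2d1 at 0.36, and Ube2h was at -0.14 without vehicle 3. Without vehicle 1, Ube2j1 was at -0.24, Ube2a at -0.23, Ube2v1 at -0.22, Ube2e2 at 0.19 and Ube2w at 0.23. Vehicle 3 is also the sample with the high acinar genes.

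**Figure D4:**
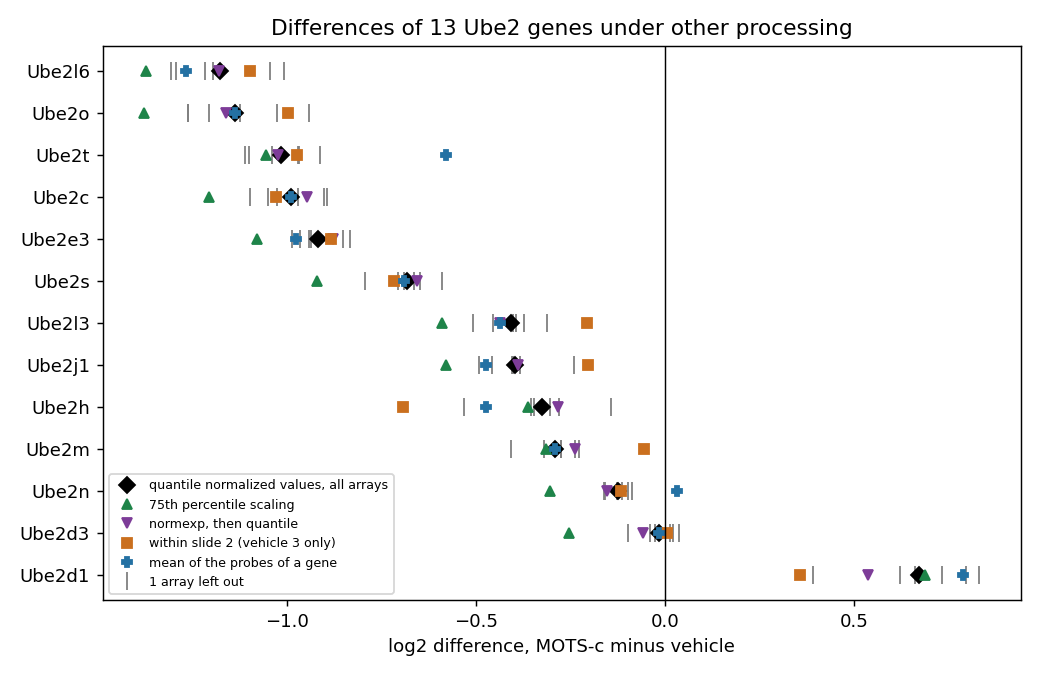
Log2 difference (MOTS-c minus vehicle, x axis) of 13 Ube2 genes (rows) as reported, with 75th percentile scaling, with normexp, within slide 2, as the mean of a gene's probes, and with each array left out in turn (grey ticks). Every point of the 6 low genes lies between -1.38 and -0.58, whereas Ube2d1 lies between 0.36 and 0.83 and Ube2d3 on both sides of 0.

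Of the 32 genes, 23 are read by several probes and 9 by 1. In 16 of the 23 all probes had the same sign, and in 7 they had opposite signs, among them Ube2b, Ube2d2a, Ube2e2, Ube2g1, Ube2k and Ube2n. None of those 7 is among the 6 low genes. Some probes have no RefSeq transcript given, among them a probe each of Ube2b, Ube2e1, Ube2e2, Ube2e3, Ube2l6 and Ube2t. The opposite signs of Ube2e2 rest on such a probe. Whether these probes read the same transcripts as the others of their gene was not tested. Among genes whose probes share 1 RefSeq transcript and lie at least 100 bases apart on the genome, the MOTS-c minus vehicle difference was often more positive at the probe nearest the 3′ end. This was the case for 15 of 18 Ube2 genes (83.3%), against 59.8% of 3581 genes of the table, with a median gap (3′ minus 5′) of 0.15 over Ube2 genes and 0.05 over all. In 6 of the 18 (33.3%, against 15.5%) the gap was higher in every MOTS-c sample than in every vehicle sample. The comparison was chosen after the values were seen and is given without a test.

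The widest gaps of the 18 genes were those of Ube2d2a at 0.77 and Ube2b at 0.73, against a median of 0.15. In Ube2b the probe at mm9 chr11:51800169-51800228 differed by -0.38. The Ube2b probe 1027 bases further toward the 3′ end, at chr11:51799142-51799201, differed by 0.35. For Ube2d2a the probe nearest the 5′ end differed by -0.47, a middle probe by -0.04 and one 5737 bases on by 0.30. In Ube2s both probes gave like values, at -0.70 and -0.68, and in Ube2d1 the gap ran the other way at -0.23. Vehicle 1 had the lowest 3′-to-5′ value of all arrays in 12 of the 18 genes, and in 1376 of the 3581 genes of the table. The median deviation of that value over the 18 genes was 0.08, 0.08 and 0.12 in MOTS-c samples and -0.23, -0.06 and 0.06 in vehicle samples. Without vehicle 1 the gap was positive in 14 of 18 genes (77.8%, against 55.2%), and within slide 2 in 10 of 18 (55.6%, against 49.7%). The state of the RNA and the use of other transcript ends were not tested.

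**Figure D5:**
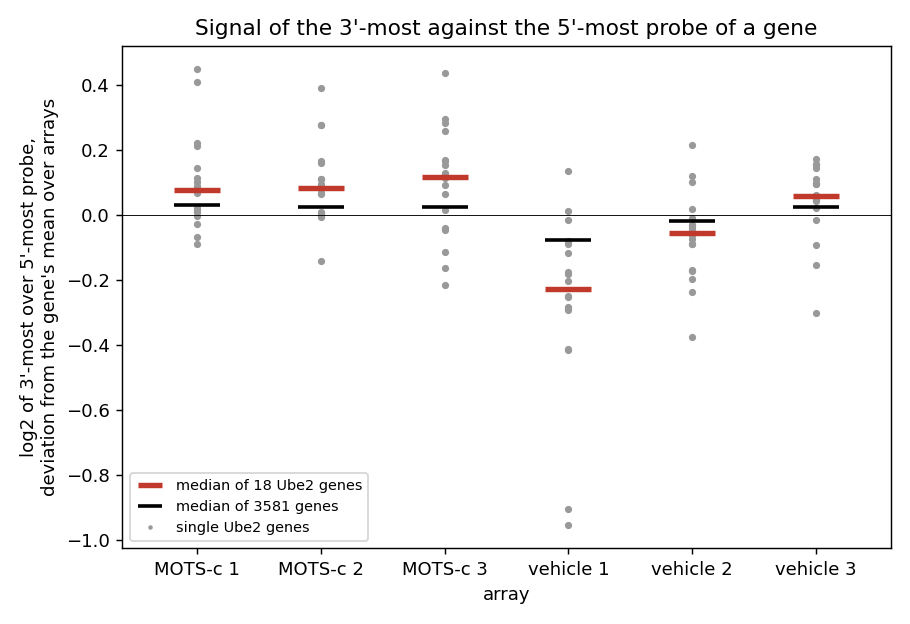
Log2 ratio of the 3′-most to the 5′-most probe on each array (MOTS-c arrays left, vehicle arrays right), as a deviation from the gene's mean over arrays; grey points are the 18 Ube2 genes, red bars their median and black bars the median of 3581 genes of the table. The red bars stand at 0.08, 0.08 and 0.12 in MOTS-c samples and at -0.23, -0.06 and 0.06 in vehicle samples, and the 2 lowest grey points, of Ube2d2a and Ube2b, are on vehicle 1.

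In the authors' deposited table, 7 Ube2 genes had a p-value under 0.05 at their brightest probe, all 7 lower in MOTS-c spleens and 0 higher. The share of all named genes under that p-value was not counted. The folds match those of the limma fit, so this count is no separate support. The smallest Benjamini-Hochberg value of any Ube2 probe was 0.370, which was also the smallest of all probes. A further 8 probes matched to Ube2 symbols through their RefSeq accessions are outside that table. Those of Ube2d2b, Ube2dnl1, Ube2dnl2, Ube2ql1, Ube2u and Ube2uos were not well above background on any of the 6 arrays. Another probe of Ube2cbp and that of Ube2d-ps were well above background on 3 MOTS-c and 2 vehicle arrays.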

How the data were processed

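Arrays of the 1-colour Agilent type measured spleen RNA of 6 samples from female NOD mice. Per the file headers, intensities were extracted and background-subtracted within each array with Agilent Feature Extraction 11.0.1.1 on a design annotated to mm9. The authors' deposited table holds those intensities for 31692 probes and log2 values of them. The 6 log2 columns, once sorted, differ by less than 0.01, so the values are quantile normalized between arrays; who did that and how is not given in the sources used here. The same deposited table holds a signed fold, treated as a score, and a p-value from a test of the authors, whose name is not given in the sources used here. The table's intensities equalled those of the scanner output, within a relative tolerance of 0.0001, for 99.7% to 99.8% of its probes per array.

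Each array had 62976 spots, 97 to 145 of them outliers and 0 saturated, and 61.8% to 64.0% of the spots that are not controls were well above background. With 3 arrays per group, their number limits the precision. Groups and replicate numbers were taken from the titles; 2 samples carry another number in their description.

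MOTS-c was compared with vehicle on the log2 values of all 31692 probes with limma 3.58.1 in R 4.3.3 (lmFit, eBayes, two-sided, Benjamini-Hochberg adjustment, threshold 0.05). A gene is its brightest probe. The members and the lists of partners and markers were chosen with earlier results of these data known. Array values are given for Ube2c, Ube2s, Ube2t, Ube2o, Ube2l6, Ube2h, Ube2m, Ube2n, Ube2l3, Ube2d3, Ube2j1 and each Ube2 gene with a log2 difference of 0.5 or more in size; of a partner list, the 3 genes with the smallest p are named, and other members where their role calls for it were named after their values were seen. A few genes that this rule would name, 1 of them in the family, are counted but not reported here by name. Alternatives were scaling of scanner signals to their 75th percentile, normexp (offset 50) with quantile normalization, a wider probe set, the slide or the replicate number as a block, the mean of a gene's probes, and leaving out each array. The scanner files hold no mean signal, so normexp used the median signal and median background. The fit was also run on simulated data that had the same spread in both groups and no slides. That run therefore does not bear on the unequal spread or the slides of these arrays. Marker lists beside those in the results had medians of 0.90 (natural killer and cytotoxic cells), 1.22 (neutrophils), 0.11 (macrophages), 0.19 (plasma cells), -3.11 (acinar pancreas) and 0.26 (fibroblasts and endothelium).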

Additional observations from a re-analysis of the deposited data

How the results depend on the processing

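The 6 low genes kept their direction under all 13 alternatives: Ube2l6 ranged from -1.37 to -1.01, Ube2o from -1.38 to -0.94, Ube2t from -1.11 to -0.58, Ube2c from -1.20 to -0.89, Ube2e3 from -1.08 to -0.83 and Ube2s from -0.92 to -0.59, with adjusted p-values of 0.0492 to 0.478. The slide block repeated the differences within slide 2, the wider probe set those of the 75th percentile, and the replicate block those reported. Those settings were no separate checks of direction. The median of all probes lay between 0.01 and 0.06 in each fit of the probes. Of the genes whose array values are given, 2 changed sign: Ube2d3, which was at -0.02, went to 0.0048 with the slide as a block and within slide 2 and ranged from -0.098 to 0.037 when 1 array was left out, and Ube2n was at 0.030 as a mean of its probes. The count of all probes past the threshold, 0 as reported, was 2 with the 75th percentile and the wider probe set (33737 probes), 1 with the slide as a block, and 0 to 772 when 1 array was left out (39 without vehicle 3, 772 without vehicle 2). The count of Ube2 genes past it was 0 to 4 when 1 array was left out, the 4 being without vehicle 2, and 0 in every other alternative. Ube2 genes that were lower with no overlap numbered 12 as reported and 12 with the mean of probes. They numbered 17 with the 75th percentile on both probe sets and 13 to 17 when 1 array was left out. Within slide 2 they numbered 19, where there is 1 vehicle array to lie below. Fewer arrays make a lack of overlap easier to reach. The matching share of all named genes was counted only for the reported setting, so the other counts have no background to be set against. The median difference of the Ube2 genes, -0.24 as reported, was -0.34 with the 75th percentile on both probe sets, -0.14 with the slide as a block and within slide 2, and -0.14 with the mean of probes. The sign of all 32 genes was the same with the 75th percentile and with normexp, and of 28 within slide 2, where Ube2g2 was at 0.26, Ube2j2 at 0.098 and Ube2g1 at -0.16 beside Ube2d3; Ube2j2 was also at 0.037 without vehicle 2. For the changed medians, the cause was not tested.

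With the replicate number as a block, 0 of all probes and 0 Ube2 genes passed (lowest limma adjusted p, 0.134). The median difference of the Ube2 genes was again -0.24, since this block cannot change a difference between the groups. Same-numbered MOTS-c and vehicle samples did not deviate together (r = -0.18, 0.00 and -0.09 over probes), and no sample pair of 1 number had the highest correlation. With 3 samples per group, and some carrying another number in their description, these values cannot decide whether samples of 1 number belong together.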
